A study of Mus musculus with 8 samples.

Results

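Frozen liver from outside tumours of male A/J mice that received carbon tetrachloride (CCl4) together with erlotinib 5 mg was compared with that of mice that received the vehicle alone, to describe what differed from vehicle-treated liver at the higher erlotinib dose. The comparison used the 2 arrays labelled CCl4 and erlotinib 5 mg and the 2 labelled vehicle, out of 8 Illumina BeadArrays in 4 groups of 2, and all 23978 of the 25697 probes that carry a gene symbol. After dim probes were left out and the brightest probe of each gene was taken, 11022 genes were tested. CCl4, a solvent that hepatocytes convert to a toxic radical, was given by gavage 3 times a week for 18 weeks as a 40% solution in olive oil, and the livers were taken at 19 weeks after 1 week without CCl4. The sample sources are labelled week 18. The labels give no age for the mice, and neither the schedule nor the body weight basis of the erlotinib dose. They do not say whether the 2 arrays of a group came from separate animals, so p-values measure the spread between arrays, which may be technical.

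The other 4 arrays held liver of mice given CCl4 alone and of mice given CCl4 with erlotinib 2 mg. No array is labelled as erlotinib without CCl4, so the parts of CCl4 and of erlotinib in a difference between the 5 mg and the vehicle group cannot be told apart by that comparison alone, and values with CCl4 alone are given beside it. The array codes of all CCl4 groups begin with CT and those of the vehicle group with OO, a difference whose meaning is not stated and that cannot be told apart from the treatment.

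Erlotinib blocks the kinase of the epidermal growth factor receptor (EGFR), through which hepatocytes and other liver cells respond to EGF-like ligands. Repeated CCl4 injury is a standard route to liver fibrosis in mice, in which stellate cells become matrix-producing myofibroblasts and macrophages accumulate. In male mice, hepatocytes also carry a sex-specific programme: growth hormone released in pulses acts through its receptor and the transcription factor STAT5B to keep male-biased genes on and female-biased genes off.

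Values below are normalised intensities on the log2 scale, and differences are log2 differences with the standard error of the limma fit (n = 2 arrays a group). An offset of 50 in the background correction makes a log2 difference understate the change of a dim probe. A gene was called higher or lower where its adjusted p in limma, by the Benjamini-Hochberg method over all 11022 genes, was under 0.05. Between 23% and 26.1% of probes stood above the background limit on each array, and arrays of 1 group correlated at r = 0.984 to 0.988. The 546 tested genes of odorant, vomeronasal and trace amine receptors, which liver is not known to use, held 0 called genes in limma, with 28 at an unadjusted p under 0.05. Of 5 hepatocyte markers, Ttr, Fga, Apoa1 and Serpina1a were above background on the arrays of both groups and Tat was under it on every array. Ahsg, another hepatocyte gene, which encodes the secreted protein fetuin-A, read 14.42 and 14.36 with vehicle and 14.36 and 14.42 with erlotinib 5 mg. The probe of the albumin gene Alb was dim, at 7.54 and 7.53 with vehicle and 7.16 and 7.58 with erlotinib 5 mg. The probe of the keratin gene Krt19, a bile duct marker, was under background on every array.

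Against vehicle, 208 genes were called, 1.89% of those tested. Of these, 129 were higher (1.17% of genes tested) and 79 were lower (0.717%), and 34 of the higher and 22 of the lower genes differed at least 2-fold. The shares of 1.17% and 0.717% are those to set beside the counts of list members below. The lists were chosen with earlier results of these data known. The median difference over all tested genes was 0.00. The arrays of the 2 groups did not overlap for any of the 208 called genes, as was also true of 41.0% of all tested genes. By the same fit, CCl4 alone differed from vehicle in 1398 genes (12.7%), CCl4 with erlotinib 2 mg in 345 (3.13%), and erlotinib 5 mg with CCl4 from CCl4 alone in 999 (9.06%). These comparisons share arrays with one another. The number of calls moved with the scaling and with single arrays: 23 genes were higher and 11 lower when arrays were scaled by their medians in place of quantile normalisation. With 1 vehicle or 1 erlotinib 5 mg array left out, which leaves 1 array in that group, 45 to 74 were higher and 33 to 54 lower. Of the called genes named below, 18 kept their call under all 17 other settings that were run: Apoa4, Cd63, Cela1, Cyp2b23, Cyp7b1, Elovl3, Hsd3b5, Ifi27, Lcn2, Lpl, Ly6d, Ly6e, Lyz1, Lyz2, Mmp2, Orm2, Spon2 and Susd4. For other genes, the settings given below are not always all those that ended a call. The settings were run on 98 genes called against vehicle that the naming rules picked or that were added after their values were seen. Not all of these are described below. Of the 98, 26 kept their call under median scaling and 50 with the authors' normalised values.

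**Figure D1:**
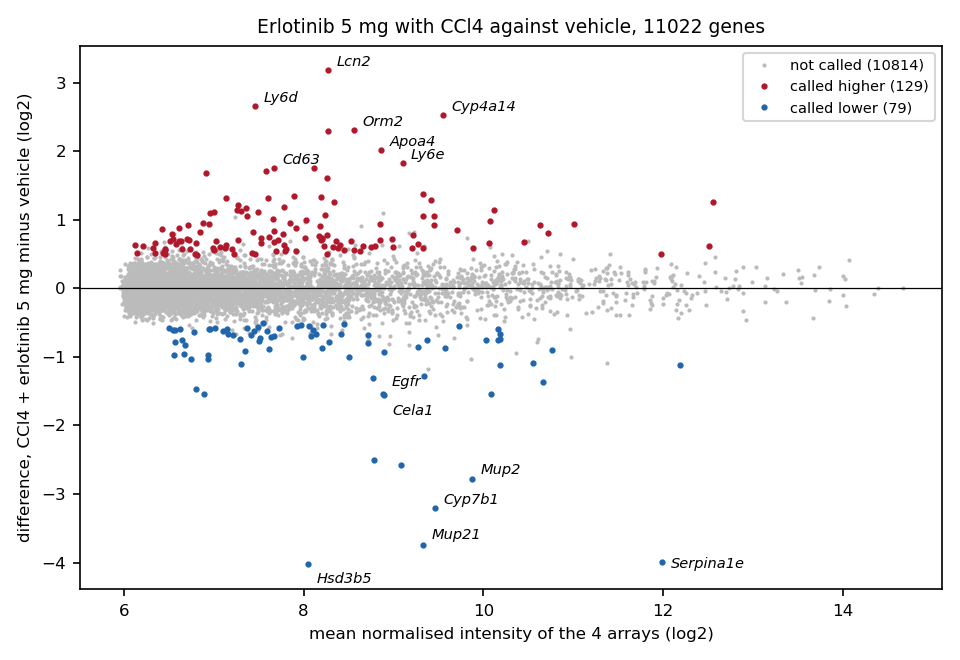
Each point is 1 of 11022 genes, with its mean normalised intensity over the 2 vehicle and 2 erlotinib 5 mg arrays (log2) on the x axis and the difference between erlotinib 5 mg with CCl4 and vehicle (log2) on the y axis. Red points are the 129 genes called higher and blue points the 79 called lower; Lcn2 (3.18) and Hsd3b5 (-4.03) lie at the extremes.

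The largest falls were in genes that male liver expresses more than female liver. Of 18 measured male-biased hepatocyte genes, 10 fell and 0 rose, and the median difference over the 18 was -1.20, beside 0.717% of all tested genes called lower. The division of the growth hormone and sex dependent list into male-biased and female-biased genes was made with the values known. Hsd3b5, a male liver 3-ketosteroid reductase of the hydroxysteroid dehydrogenase family on chromosome 3, read 10.34 and 9.79 with vehicle and 5.88 and 6.20 with erlotinib 5 mg. It was under background on both erlotinib 5 mg arrays and on both CCl4 arrays, so vehicle was at least 12.7-fold higher than erlotinib 5 mg (log2 difference -4.03 ± 0.17, adjusted p = 8.42e-10 in limma). Serpina1e, one of the mouse alpha-1 antitrypsin genes, read 14.21 and 13.77 with vehicle and 10.51 and 9.49 with erlotinib 5 mg. Its difference was -3.99 ± 0.37 (adjusted p = 8.76e-06), beside -3.35 with CCl4 alone. Cyp7b1, which hydroxylates oxysterols in the alternative route of bile acid synthesis, went from 11.36 and 10.77 to 8.0 and 7.73, a difference of -3.20 ± 0.17 (adjusted p = 1.83e-08). For none of these 3 genes was a difference called between erlotinib 5 mg and CCl4 alone: the differences were -0.14, -0.64 and 0.34.

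The major urinary protein (Mup) genes, which encode pheromone-binding lipocalins that male liver secretes in large amounts, fell on the brightest probe of each of 4 listed members, Mup2, Mup6, Mup20 and Mup21. Mup21 read 11.78 and 10.64 with vehicle, 7.11 and 6.79 with CCl4 alone and 7.90 and 7.02 with erlotinib 5 mg. Mup2 read 11.40 and 11.12 with vehicle, 7.89 and 7.46 with CCl4 alone and 8.91 and 8.06 with erlotinib 5 mg. The vehicle arrays stood clear of all 6 CCl4-treated arrays on both probes. Against vehicle, Mup21 differed by -3.75 ± 0.29, Mup2 by -2.77 ± 0.35, Mup6 by -2.58 ± 0.30 and Mup20 by -2.50 ± 0.28, with adjusted p between 1.39e-06 and 0.000261. A second Mup2 probe was also lower (-1.78, adjusted p = 2.08e-06). Mup5, outside the list and named here after its value was seen, read 6.89 and 7.04 with vehicle and 6.28 and 6.07, under background, with erlotinib 5 mg (at least 1.48-fold lower; -0.78 ± 0.13, adjusted p = 0.00269), beside -0.81 with CCl4 alone. The Mup5 call ended without vehicle array 2 (-0.71) or erlotinib 5 mg array 2 (-0.68). Against CCl4 alone the 4 brightest probes were 0.51 to 0.81 higher, and none of these differences was called (adjusted p 0.123 to 0.42). Mup genes lie in 1 cluster on chromosome 4 and are close in sequence, so a probe may read several of them and these probes are not independent. With an intensity trend and a robust prior in limma, the calls of Mup2, Mup6, Mup20 and Mup21 ended, at adjusted p between 0.0593 and 0.253. Median scaling ended those of Mup2, Mup6 and Mup20 (adjusted p = 0.126, 0.0773 and 0.0642).

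The promoters of 3 of these genes are shown because the genes fell together and their sequences resemble each other. Each runs from 250 bases before the start site to 50 bases after it (RefSeq, GRCm38.p6), at chr4:60139807-60140106 on the minus strand for Mup2, chr4:60003231-60003530 on the plus strand for Mup6 and chr4:62150792-62151091 on the minus strand for Mup21. Capitals mark the longest run of bases that all 3 share, 19 bases long.
Mup2: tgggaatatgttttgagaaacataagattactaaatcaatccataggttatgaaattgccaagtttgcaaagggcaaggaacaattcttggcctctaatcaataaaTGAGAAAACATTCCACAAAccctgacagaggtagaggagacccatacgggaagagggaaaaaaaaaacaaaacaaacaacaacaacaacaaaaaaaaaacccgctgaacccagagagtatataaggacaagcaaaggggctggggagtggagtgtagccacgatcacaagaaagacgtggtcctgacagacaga
Mup6: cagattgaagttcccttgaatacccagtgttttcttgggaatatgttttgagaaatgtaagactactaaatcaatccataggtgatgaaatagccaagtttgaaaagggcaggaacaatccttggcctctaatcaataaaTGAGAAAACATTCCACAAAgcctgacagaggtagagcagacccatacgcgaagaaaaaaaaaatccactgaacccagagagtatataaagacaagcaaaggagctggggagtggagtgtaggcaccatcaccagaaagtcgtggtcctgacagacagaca
Mup21: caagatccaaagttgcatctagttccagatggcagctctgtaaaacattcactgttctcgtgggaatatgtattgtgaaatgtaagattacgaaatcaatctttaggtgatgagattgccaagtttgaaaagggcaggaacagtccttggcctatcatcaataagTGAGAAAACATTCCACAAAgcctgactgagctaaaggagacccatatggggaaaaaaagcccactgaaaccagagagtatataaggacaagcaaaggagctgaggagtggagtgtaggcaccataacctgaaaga
Counted from the start site, the shared run begins at position -144 in Mup2, -110 in Mup6 and -85 in Mup21. Over their aligned lengths, Mup2 and Mup6 were identical at 93.2% of 263 bases, Mup2 and Mup21 at 87.1% of 240, and Mup6 and Mup21 at 85.5% of 275. The letters TTCNNNGAA, the consensus of STAT5 binding, searched on both strands, occur in none of these 3 windows and in 8.3% of all 32851 promoters in the table, and a match or its absence in these windows says nothing of binding.

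The other male-biased genes that fell were Susd4, a complement regulator, Elovl3, a fatty acid elongase, and C8b, which encodes a chain of complement component 8. Susd4 read 7.97 and 7.34 with vehicle and 6.10 and 6.14 with erlotinib 5 mg (at least 2.4-fold lower, since both erlotinib 5 mg arrays were under background; log2 difference -1.54 ± 0.16, adjusted p = 2.86e-05 in limma). Elovl3 read 7.70 and 7.37 against 6.04 and 6.10, at least 2.2-fold lower by the same bound (-1.47 ± 0.13, adjusted p = 3.72e-06). C8b differed by -0.74 ± 0.15 (adjusted p = 0.0143), a call that ended without vehicle array 1 (-0.58, adjusted p = 0.278) and without erlotinib 5 mg array 2 (-0.63, adjusted p = 0.169). The 8 male-biased genes not called included Cyp2d9 at -0.94 ± 0.27 (adjusted p = 0.107), Cyp4a12a at -0.29 ± 0.29 and Gstp1 at -0.16 ± 0.14. The probes of Slco1a1 and Moxd1 were under background on both arrays of both groups.

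**Figure D2:**
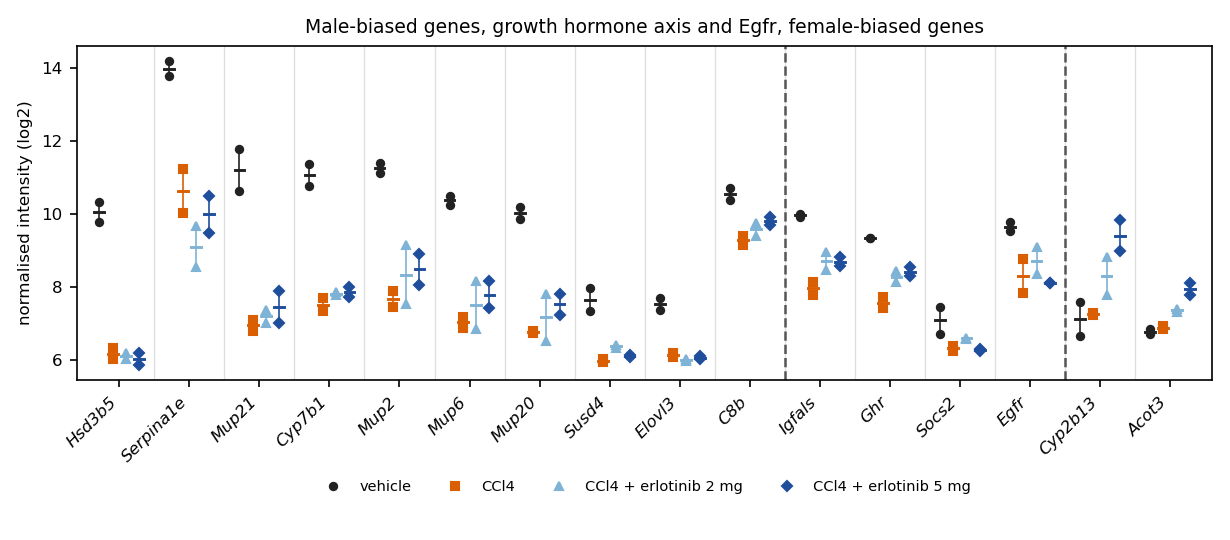
Normalised intensity (log2) on every array for 10 male-biased genes, 3 genes of the growth hormone axis with Egfr, and 2 female-biased genes, separated by dashed lines. Symbols are single arrays in 4 groups, short bars are group means (n = 2); all 6 CCl4-treated arrays lie below both vehicle arrays for the male-biased genes, and the erlotinib 5 mg arrays lie highest for Cyp2b13 and Acot3.

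Of 6 measured female-biased genes, 2 rose (Cyp2b13 and Acot3) and 0 fell, beside 1.17% of all tested genes called higher. Cyp2b13, a cytochrome P450 that male liver keeps low, read 6.66 and 7.58 with vehicle, 7.23 and 7.29 with CCl4 alone and 8.99 and 9.83 with erlotinib 5 mg. Both erlotinib 5 mg arrays lay above all vehicle and CCl4 arrays, with differences of 2.29 ± 0.31 from vehicle (adjusted p = 0.000476 in limma) and 2.15 ± 0.31 from CCl4 alone (adjusted p = 0.000219). Acot3, a peroxisomal acyl-CoA thioesterase named here after its values were seen, read 6.84 and 6.71 with vehicle and 7.78 and 8.13 with erlotinib 5 mg, a difference of 1.18 ± 0.13 (adjusted p = 5.28e-05), beside 0.12 for CCl4 alone. Cyp2b9, a close relative of Cyp2b13, was at 0.69 ± 0.20 (adjusted p = 0.117). Probes of Cyp2b genes, like those of the Acot genes, may bind transcripts of relatives. The Cyp2b13 call against vehicle ended with an intensity trend and a robust prior (adjusted p = 0.263). It also ended with the authors' normalised values (adjusted p = 0.0591) and with median scaling (adjusted p = 0.187).

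The growth hormone and IGF axis held 3 called genes of 17 measured, all lower, beside 0.717% of all tested genes called lower. The median difference of the list was -0.11. Igfals, which encodes the liver protein that holds IGF1 in its circulating complex, read 10.02 and 9.93 with vehicle, 8.14 and 7.80 with CCl4 alone and 8.82 and 8.57 with erlotinib 5 mg. It was -1.28 ± 0.16 from vehicle (adjusted p = 0.000203 in limma) and 0.73 ± 0.16 above CCl4 alone (adjusted p = 0.00633), with the erlotinib 5 mg arrays between the other groups. The second of these calls ended without CCl4 array 2 (0.56, adjusted p = 0.12) and without erlotinib 5 mg array 1 (0.60, adjusted p = 0.0934). Ghr, the growth hormone receptor, read 9.36 and 9.35 with vehicle, 7.42 and 7.73 with CCl4 alone and 8.30 and 8.56 with erlotinib 5 mg. Its differences were -0.93 ± 0.14 from vehicle (adjusted p = 0.00149) and 0.85 ± 0.14 from CCl4 alone (adjusted p = 0.000738). Socs2, a feedback inhibitor that growth hormone induces, was -0.83 ± 0.17 from vehicle (adjusted p = 0.0166), a call that ended without vehicle array 1 (-0.46, adjusted p = 0.28) and without either erlotinib 5 mg array (-0.86 and -0.80). Igf1 itself, which read 12.03 and 11.92 with vehicle, was at -0.21 ± 0.13 and was not called (adjusted p = 0.633).

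The STAT5 consensus TTCNNNGAA was found in 2 of the 3 promoter windows of Igfals and in neither window of Ghr. No window was available for Socs2, so it was not searched. The window at chr17:24877981-24878280 on the plus strand (RefSeq, GRCm38.p6) is shown, with the match in capitals.
Igfals: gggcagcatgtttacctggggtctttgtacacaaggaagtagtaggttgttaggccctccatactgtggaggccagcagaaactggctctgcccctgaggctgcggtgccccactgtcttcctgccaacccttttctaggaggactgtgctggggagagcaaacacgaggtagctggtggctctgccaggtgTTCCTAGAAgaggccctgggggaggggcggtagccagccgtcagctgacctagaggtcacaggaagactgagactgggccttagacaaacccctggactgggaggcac
This match begins at position -58 from the start site. Among promoters of genes called lower, 5 of 82 (6.1%) held a match, and among those of genes called higher 6 of 117 (5.13%). Among those of all tested genes it was 846 of 11244 (7.52%). The male-biased genes called lower had 8 promoters, for 7 of the 10 genes, and 0 held a match.

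Egfr, the target of erlotinib, was lower at the transcript level. Its brightest probe read 9.78 and 9.54 with vehicle, 7.85 and 8.79 with CCl4 alone, 8.36 and 9.09 with erlotinib 2 mg and 8.11 and 8.13 with erlotinib 5 mg. The difference was -1.54 ± 0.24 (adjusted p = 0.00182 in limma), and no difference from CCl4 alone was called (-0.20 ± 0.24, 95% interval -0.71 to 0.31). The other 3 Egfr probes gave -0.82 (adjusted p = 0.0452), -0.96 (adjusted p = 0.0508) and -0.26 (adjusted p = 0.603), each adjusted over all kept probes. The call on the brightest probe ended without vehicle array 1 (-1.42) and with an intensity trend and a robust prior (adjusted p = 0.183). It also ended with the authors' normalised values (adjusted p = 0.0717) and with median scaling (adjusted p = 0.408). Of 13 measured genes of the EGF receptor family and its ligands and adaptors, Egfr was the 1 called. Of the 13, 8 were above background on at least 1 of the 4 arrays compared. The receptor genes Erbb2 and Erbb3 had no probe under these symbols and were not measured. Errfi1, a feedback inhibitor of EGFR, was at -0.44 ± 0.18 (adjusted p = 0.353). Hbegf, an EGFR ligand, was at 0.00 ± 0.12 on a probe near background.

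On a list of cytochrome P450 genes, 3 of 41 measured rose and 3 fell, beside 1.17% and 0.717% of all tested genes. The list median was -0.10 against -0.36 with CCl4 alone. Besides Cyp7b1 the falls on this list were Cyp2c50 and Cyp2c37, epoxygenases of pericentral hepatocytes. Cyp2c50 read 11.32 and 10.87 with vehicle, 8.35 and 8.21 with CCl4 alone and 9.69 and 10.31 with erlotinib 5 mg (-1.09 ± 0.18 from vehicle, adjusted p = 0.00234 in limma; 1.72 ± 0.18 from CCl4 alone, adjusted p = 1.05e-05). Cyp2c37 was -0.75 ± 0.17 from vehicle (adjusted p = 0.0238) and 1.91 above CCl4 alone. The call of Cyp2c50 against vehicle ended without vehicle array 1 (-0.87) or erlotinib 5 mg array 1 (-0.79), and that of Cyp2c37 without either vehicle array (-0.66 and -0.85) or erlotinib 5 mg array 1 (-0.43). Outside the list Cyp2c67, named here after its value was seen, read 10.94 and 10.56 with vehicle and 9.48 and 9.78 with erlotinib 5 mg (-1.12 ± 0.17, adjusted p = 0.00178; -0.93 without vehicle array 1, which ended the call), beside -1.50 with CCl4 alone, and its other probe was not called. Cyp2b23, likewise outside the list and named after its value was seen, read 6.66 and 7.25 with vehicle and 8.12 and 8.41 with erlotinib 5 mg (1.31 ± 0.17, adjusted p = 0.000388), beside -0.05 with CCl4 alone. Cyp4a31, also outside it and named after its value was seen, was at 0.92 ± 0.13 (adjusted p = 0.000738) beside -0.45 with CCl4 alone. The largest rise on the list was in Cyp4a14, a fatty acid omega-hydroxylase and target of the lipid-sensing receptor PPAR-alpha. It read 7.41 and 9.16 with vehicle, 9.56 and 10.04 with CCl4 alone and 10.82 and 10.80 with erlotinib 5 mg, a difference of 2.53 ± 0.35 from vehicle (adjusted p = 0.000572). The vehicle arrays of Cyp4a14 lay far apart, and the call ended with an intensity trend and a robust prior (adjusted p = 0.284). It also ended with the authors' normalised values (adjusted p = 0.0521) and with median scaling (adjusted p = 0.0723).

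Genes whose products handle lipids and drugs alongside the P450 enzymes moved in both directions. Acot1, a cytosolic acyl-CoA thioesterase, read 8.71 and 8.95 with vehicle, 8.04 and 7.68 with CCl4 alone and 9.70 and 9.51 with erlotinib 5 mg. It was thus lower than vehicle with CCl4 alone (-0.97, adjusted p = 0.000193 in limma) and higher with erlotinib 5 mg (0.78 ± 0.15, adjusted p = 0.00843; 0.66 without vehicle array 1 and 0.68 without erlotinib 5 mg array 1, where the call ended). Nr1d1, which encodes the clock repressor REV-ERB-alpha, had the same order, with 7.43 and 7.61 on vehicle, 6.46 and 6.34 on CCl4 and 8.15 and 7.98 on erlotinib 5 mg arrays (0.55 ± 0.12 from vehicle, adjusted p = 0.0255; the call ended without any 1 of these vehicle or erlotinib 5 mg arrays). Ces3b, a carboxylesterase, kept part of its CCl4 difference: it was -3.07 with CCl4 alone and -1.54 ± 0.23 with erlotinib 5 mg (adjusted p = 0.00135; -1.33 without vehicle array 1, adjusted p = 0.0561). Nr1i3, which encodes the drug-sensing receptor CAR, was -0.98 ± 0.12 (adjusted p = 0.000261) and differed little from CCl4 alone (-0.13). Slc1a2, a pericentral glutamate transporter, was -1.11 ± 0.16 (adjusted p = 0.000738). Glutathione and other conjugation genes counted 5 rises and 1 fall among 36, among them Gstm2, a glutathione transferase, at 0.92 ± 0.14 (adjusted p = 0.00141) and with both of its other probes called the same way. Ephx1, a microsomal epoxide hydrolase, was at 0.98 ± 0.18 (adjusted p = 0.00588) beside 0.91 with CCl4 alone, a call that ended without vehicle array 1 (0.85) or erlotinib 5 mg array 1 (0.75).

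Among 22 antioxidant genes that the factor NRF2 controls, 3 rose and 0 fell, beside 1.17% of all tested genes called higher. The median was 0.16 both with erlotinib 5 mg and with CCl4 alone. Srxn1, which encodes sulfiredoxin, read 7.24 and 7.51 with vehicle, 9.44 and 9.90 with CCl4 alone and 8.36 and 8.30 with erlotinib 5 mg. The erlotinib 5 mg arrays lay between the other groups (0.96 ± 0.15 from vehicle, adjusted p = 0.00158 in limma; -1.33 from CCl4 alone, adjusted p = 1.94e-05). Osgin1, an oxidative stress response gene, was at 1.07 ± 0.19 (adjusted p = 0.00536) beside 1.13 with CCl4 alone, and the autophagy receptor gene Sqstm1 at 0.59 ± 0.13 (adjusted p = 0.0238) beside 1.4. The calls ended without vehicle array 1 for Srxn1 (0.82, adjusted p = 0.0579), without vehicle array 1 or erlotinib 5 mg array 2 for Osgin1 (0.87 and 0.74), and without any 1 vehicle or erlotinib 5 mg array for Sqstm1 (0.54 to 0.64).

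Of 20 measured pericentral genes, 2 rose and 4 fell, and of 18 periportal genes 0 rose and 2 fell. The medians were -0.12 and -0.18, against -0.73 and -0.68 with CCl4 alone. G6pc, the enzyme that releases glucose from glucose 6-phosphate, was -1.37 ± 0.26 (adjusted p = 0.0096 in limma), but the call ended without erlotinib 5 mg array 1 (-0.97, adjusted p = 0.202) and without either vehicle array (-1.22 and -1.52). Among 17 cholesterol synthesis genes 2 fell and 0 rose: Hsd17b7 was -0.86 ± 0.14 (adjusted p = 0.00237) and Mvd -0.77 ± 0.13 (adjusted p = 0.00307), calls that ended without erlotinib 5 mg array 1 (adjusted p = 0.0604 and 0.0649) and, for Mvd, also without vehicle array 1 (-0.68). Cela1, an elastase gene, read 9.55 and 9.79 with vehicle and 8.08 and 8.17 with erlotinib 5 mg (-1.55 ± 0.14, adjusted p = 5.69e-06). Cela1 is itself on the list of pancreas markers, where it was the 1 of 3 with a probe that stood above background. The other pancreas markers, Cpa1 and Prss2, were under background on all arrays. Whether the Cela1 signal came from pancreatic tissue was not tested.

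The largest rise was in Lcn2, lipocalin 2, an iron-siderophore binding protein that hepatocytes and neutrophils make in inflammation. It read 6.78 and 6.58 with vehicle, 11.44 and 12.20 with CCl4 alone, 10.51 and 9.54 with erlotinib 2 mg and 9.77 and 9.96 with erlotinib 5 mg. Erlotinib 5 mg arrays lay between the vehicle and the CCl4 arrays, 3.18 ± 0.25 above vehicle (9.08-fold, adjusted p = 1.45e-06 in limma) and -1.96 ± 0.25 from CCl4 alone (adjusted p = 6.82e-05). Of 22 acute phase and metallothionein genes measured, Lcn2, Orm2 and Mt1 rose and 0 fell, and the list median was 0.05 against 0.32 with CCl4 alone. Orm2, an orosomucoid, read 7.21 and 7.60 with vehicle, 9.27 and 9.83 with CCl4 alone and 9.53 and 9.90 with erlotinib 5 mg. It was 2.31 ± 0.20 above vehicle (adjusted p = 3.43e-06), and the difference from CCl4 alone was 0.16 (95% interval -0.25 to 0.58). Mt1, a zinc-binding metallothionein, was at 1.26 ± 0.20 (adjusted p = 0.00203; 1.18 without vehicle array 2, adjusted p = 0.05). Of 4 neutrophil marker genes with a probe, S100a9, Mpo and Elane were under background on all arrays. The other marker stood above background on at least 1 array. Of the 3 neutrophil markers that were tested, 0 were called against vehicle with erlotinib 5 mg.

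Ly6d and Ly6e encode lipid-anchored surface proteins, and Cd63 a membrane protein of late endosomes. Ly6d read 6.15 and 6.12 with vehicle, under background, 10.72 and 11.05 with CCl4 alone and 8.73 and 8.86 with erlotinib 5 mg. Erlotinib 5 mg was at least 5.13-fold above vehicle (log2 difference 2.66 ± 0.16, adjusted p = 5.66e-08 in limma) and differed from CCl4 alone by -2.09 (adjusted p = 6.8e-07). The second Ly6d probe was called too, at 1.85 (adjusted p = 2.08e-06). Ly6e read 8.0 and 8.38 with vehicle, 9.98 and 9.88 with CCl4 alone and 10.11 and 9.91 with erlotinib 5 mg, a difference of 1.82 ± 0.14 from vehicle (adjusted p = 1.04e-06) and of 0.08 from CCl4 alone (95% interval -0.21 to 0.37). Cd63 read 6.79 and 6.80 with vehicle, 10.12 and 10.17 with CCl4 alone and 8.42 and 8.69 with erlotinib 5 mg, 1.76 ± 0.12 above vehicle (adjusted p = 3.27e-07). Both other Cd63 probes were called higher.

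Apoa4, an apolipoprotein of triglyceride-rich lipoproteins, and Lpl, lipoprotein lipase, also stayed between the groups. Apoa4 read 7.55 and 8.16 with vehicle, 11.01 and 10.66 with CCl4 alone and 9.93 and 9.81 with erlotinib 5 mg (2.02 ± 0.17 from vehicle, adjusted p = 3.72e-06 in limma). Lpl read 7.53 and 6.96 with vehicle, 10.13 and 10.31 with CCl4 alone and 8.98 and 9.02 with erlotinib 5 mg (1.76 ± 0.15, adjusted p = 4.14e-06). Apoa4 was the 1 called gene of 19 apolipoprotein and lipoprotein genes, and Lpl and the triglyceride lipase Pnpla2 (0.60 ± 0.11, adjusted p = 0.00896) were the 2 called of 20 lipid droplet and lipolysis genes. The Pnpla2 call ended without any 1 vehicle or erlotinib 5 mg array (0.55 to 0.65).

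**Figure D3:**
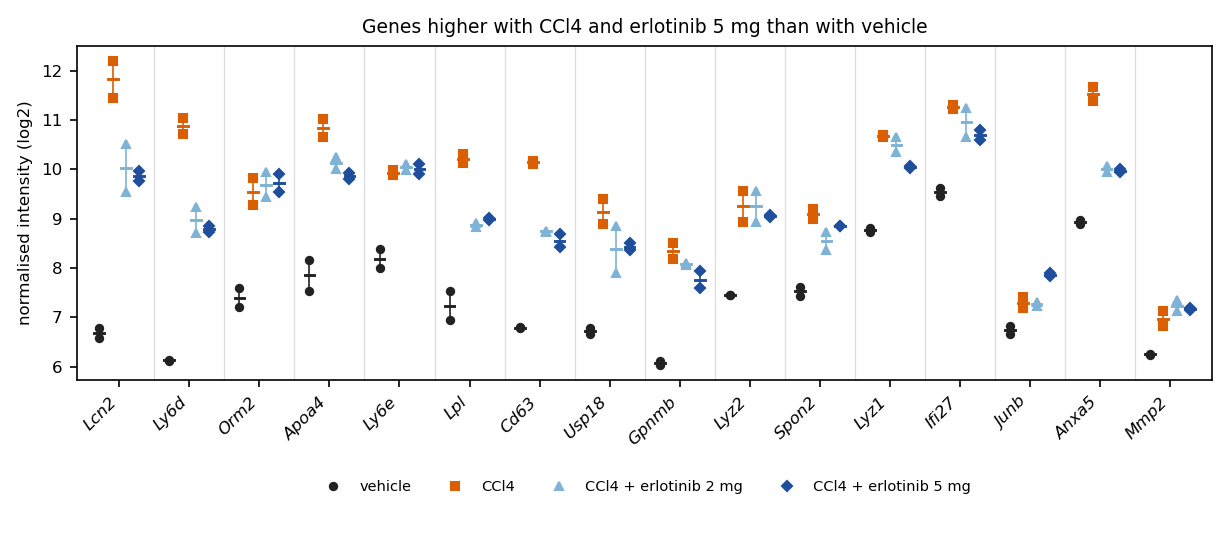
Normalised intensity (log2) on every array for 16 genes called higher with CCl4 and erlotinib 5 mg than with vehicle. Symbols are single arrays in 4 groups and short bars are group means (n = 2); the erlotinib 5 mg arrays of Lcn2, Ly6d, Cd63 and Lpl lie between the vehicle and the CCl4 arrays, and those of Ly6e lie level with the CCl4 arrays.

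Of 21 measured Kupffer cell and macrophage genes, 6 rose and 1 fell, beside 1.17% and 0.717% of all tested genes. The list median was 0.19, against 0.33 with CCl4 alone. In whole liver, more cells of a type and more RNA per cell cannot be told apart. Gpnmb, a glycoprotein of lipid-laden and scar-associated macrophages, read 6.11 and 6.04 with vehicle, under background, and 7.59 and 7.94 with erlotinib 5 mg (at least 2.52-fold higher; log2 difference 1.69 ± 0.14, adjusted p = 2.52e-06 in limma). Its other 3 kept probes were at or near background and were not called. Lyz2, the lysozyme of macrophages, read 7.46 and 7.45 with vehicle and 9.08 and 9.04 with erlotinib 5 mg (1.61 ± 0.19, adjusted p = 0.000127), and the probe named for its near copy Lyz1 gave 1.29 ± 0.12 (adjusted p = 1.21e-05). These 2 probes may read the same transcripts. C1qb and C1qc, complement genes of resident macrophages, were at 0.91 ± 0.16 and 0.77 ± 0.17 (adjusted p = 0.00568 and 0.0236), calls that ended without vehicle array 1 (0.74 and 0.67), without either erlotinib 5 mg array and, for C1qc, without vehicle array 2 (0.87). The Kupffer cell marker Clec4f was at 0.11 ± 0.12, Vsig4 was at 0.03 ± 0.14, and the mannose receptor gene Mrc1, named here after its value was seen, fell by 0.51 (-0.51 ± 0.11, adjusted p = 0.0276, a call that ended without any 1 vehicle or erlotinib 5 mg array). The summed level of the 6 Kupffer cell and macrophage markers with a probe was 9.65 on both vehicle arrays and 10.19 and 10.21 on the erlotinib 5 mg arrays (log2). That sum includes Lyz2, the 1 marker among them that was called, so it is not a separate result from the Lyz2 call. It also includes Clec4f and Vsig4, at the 0.11 and 0.03 given above. Marco, Cd5l and Adgre1, also in it, were under background on all arrays.

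Lysosomal genes counted 4 rises and 0 falls among 30 measured, Cd63 among them, beside 1.17% of all tested genes called higher. Laptm5, a lysosomal protein of blood-derived cells, read 7.14 and 7.37 with vehicle and 8.01 and 8.18 with erlotinib 5 mg (0.84 ± 0.12, adjusted p = 0.000971 in limma). The cysteine protease gene Lgmn was at 0.73 ± 0.14 (adjusted p = 0.0098) and the progranulin gene Grn at 0.59 ± 0.12 (adjusted p = 0.0141). The Lgmn call ended without vehicle array 2 (0.56) or erlotinib 5 mg array 1 (0.67), and the Grn call without either vehicle array (0.54 and 0.63) or erlotinib 5 mg array 1 (0.51). Interferon response genes counted 5 rises and 0 falls among 38, beside the same 1.17% of all tested genes. Usp18, which removes ISG15 from proteins, read 6.67 and 6.79 with vehicle, 8.88 and 9.41 with CCl4 alone and 8.36 and 8.51 with erlotinib 5 mg (1.71 ± 0.23, adjusted p = 0.000359), and both of its other probes were called higher. The Usp18 call ended with an intensity trend and a robust prior (adjusted p = 0.058) and with the authors' normalised values (adjusted p = 0.0591). Ifi27, an interferon-induced membrane protein gene, was at 1.14 ± 0.16 (adjusted p = 0.000612), and the list median was 0.11 against 0.43 with CCl4 alone.

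Antigen presentation genes gave 2 rises among 18 measured, Cd74, the class II invariant chain, and H2-Eb1, a class II chain. Cd74 read 8.41 and 8.89 with vehicle, 10.89 and 9.35 with CCl4 alone and 10.05 and 9.99 with erlotinib 5 mg. The erlotinib 5 mg arrays lay above both vehicle arrays and between the 2 CCl4 arrays, and the difference from vehicle was 1.37 ± 0.32 (adjusted p = 0.0327 in limma). Both calls ended without any 1 vehicle or erlotinib 5 mg array, at adjusted p between 0.0839 and 0.378 for Cd74 and H2-Eb1, and that of Cd74 also without either erlotinib 2 mg array (adjusted p = 0.0523). Of the chemokine and adhesion genes, 2 of 28 rose and 1 fell: Cxcl1, a neutrophil attractant, was at 0.75 ± 0.15 (adjusted p = 0.0119) beside -0.29 with CCl4 alone. The Cxcl1 call ended without vehicle array 1 (0.62) or either erlotinib 5 mg array (0.76 and 0.74).

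Beside 1.17% of all tested genes called higher, some matrix genes were called. Of 20 stellate cell and myofibroblast markers measured, 3 rose and 0 fell, as did 2 of 16 genes of matrix crosslinking and turnover, 2 of 19 that encode basement membrane or matrix glycoproteins, and 1 of 7 interstitial collagen genes. Mmp2, a gelatinase of stellate cells, read 6.27 and 6.24 with vehicle, under background, and 7.20 and 7.16 with erlotinib 5 mg (at least 1.68-fold higher; log2 difference 0.93 ± 0.13, adjusted p = 0.000572 in limma), and its call was kept without each array. Col4a1, a basement membrane collagen, read 7.35 and 7.05 with vehicle, 8.56 and 8.67 with CCl4 alone and 7.89 and 7.82 with erlotinib 5 mg. It was 0.66 ± 0.12 above vehicle (adjusted p = 0.00824) and -0.76 from CCl4 alone (adjusted p = 0.000583). The first call ended without vehicle array 2 (0.51) or erlotinib 5 mg array 1 (0.62). Sparc, Col6a1, Tpm1, Bgn and Lum gave 0.58 to 0.82 with adjusted p of 0.00686 to 0.0255, and each of these calls ended without vehicle array 1 (0.49 to 0.75) and without at least 1 erlotinib 5 mg array. Spon2, a secreted matrix protein outside these lists, read 7.43 and 7.63 with vehicle and 8.85 and 8.86 with erlotinib 5 mg (1.33 ± 0.14, adjusted p = 2.81e-05).

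For Acta2, which encodes the actin that marks myofibroblasts, arrays read 6.87 and 6.52 with vehicle, 8.39 and 9.52 with CCl4 alone and 6.6 and 6.71 with erlotinib 5 mg. It was not called against vehicle (-0.04 ± 0.27, 95% interval -0.62 to 0.54) and was -2.3 ± 0.27 from CCl4 alone (adjusted p = 3.82e-05 in limma), a call that ended with an intensity trend and a robust prior (adjusted p = 0.0668). Timp1, an inhibitor of matrix proteases, was at 0.24 ± 0.14 against vehicle (95% interval -0.06 to 0.53) and 1.48 with CCl4 alone. Col1a1 was at 0.25 ± 0.13 (95% interval -0.03 to 0.53) and 0.67 with CCl4 alone, on a probe under background in vehicle, and Col3a1 was under background on all 8 arrays. Tgfb1 was at 0.13 ± 0.12 (95% interval -0.12 to 0.38). The summed level of the stellate cell and myofibroblast markers was 9.52 and 9.54 with vehicle, 9.71 and 9.92 with erlotinib 5 mg and 10.2 and 10.7 with CCl4 alone (log2).

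Some annexin, keratin and cell cycle genes were also above vehicle, beside 1.17% of all tested genes called higher. Anxa5, a phospholipid-binding annexin, read 8.89 and 8.97 with vehicle, 11.38 and 11.68 with CCl4 alone and 9.94 and 10.01 with erlotinib 5 mg (1.05 ± 0.12 from vehicle, adjusted p = 0.000127 in limma). Of 16 annexin and S100 genes, 3 rose and 0 fell, the others being Anxa2 at 1.34 ± 0.25 (adjusted p = 0.00843) and S100a11 at 1.06 ± 0.20 (adjusted p = 0.00673), beside 4.04 and 3.35 with CCl4 alone. Krt8, a simple epithelial keratin, was at 0.996 ± 0.23 (adjusted p = 0.0338) beside 3.32 with CCl4 alone, while its partner Krt18 was at 0.15 ± 0.23 (95% interval -0.33 to 0.63) beside 2.66. The call of Anxa2 ended without any 1 vehicle or erlotinib 5 mg array (1.27 to 1.41), that of S100a11 without either vehicle array (1.06 and 1.06) or erlotinib 5 mg array 1 (0.77), and that of Krt8 without vehicle array 1 (0.73) or either erlotinib 5 mg array (0.82 and 1.17). On a list of 24 cell cycle genes 4 rose and 0 fell. Outside it Mcm10, a DNA replication factor, read 9.46 and 9.40 with vehicle and 8.27 and 7.98 with erlotinib 5 mg (-1.31 ± 0.30, adjusted p = 0.0293; second probe -1.31, adjusted p = 0.0214), beside -2.23 with CCl4 alone. The Mcm10 call ended without any 1 vehicle or erlotinib 5 mg array (-1.16 to -1.45) and with an intensity trend and a robust prior (adjusted p = 0.521). Cdca3 and Cenpa, cell division genes outside the list and named here after their values were seen, were at 0.66 ± 0.12 (at least 1.18-fold higher; adjusted p = 0.00637) and 0.59 ± 0.13 (adjusted p = 0.0238), and both calls ended without any 1 vehicle or erlotinib 5 mg array (0.65 to 0.67 and 0.50 to 0.68). Cdkn1a, which encodes the cell cycle inhibitor p21, read 6.44 and 6.45 with vehicle, 8.29 and 8.64 with CCl4 alone and 7.62 and 7.52 with erlotinib 5 mg (1.12 ± 0.18, adjusted p = 0.00201), and both of its other probes were called higher. Ccnd1, cyclin D1, was at 0.95 ± 0.22 (adjusted p = 0.0338; 0.49 without erlotinib 5 mg array 1, adjusted p = 0.447) beside 2.85 with CCl4 alone, and its call ended too without either vehicle or either erlotinib 2 mg array. Junb, an AP-1 transcription factor, read 6.67 and 6.82 with vehicle, 7.20 and 7.41 with CCl4 alone and 7.83 and 7.90 with erlotinib 5 mg, and stood above both groups (1.12 ± 0.12 from vehicle, adjusted p = 4.36e-05; 0.57 from CCl4 alone, adjusted p = 0.0054). The second Junb call ended without CCl4 array 1 (0.46) or erlotinib 5 mg array 2 (0.53).

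**Figure D4:**
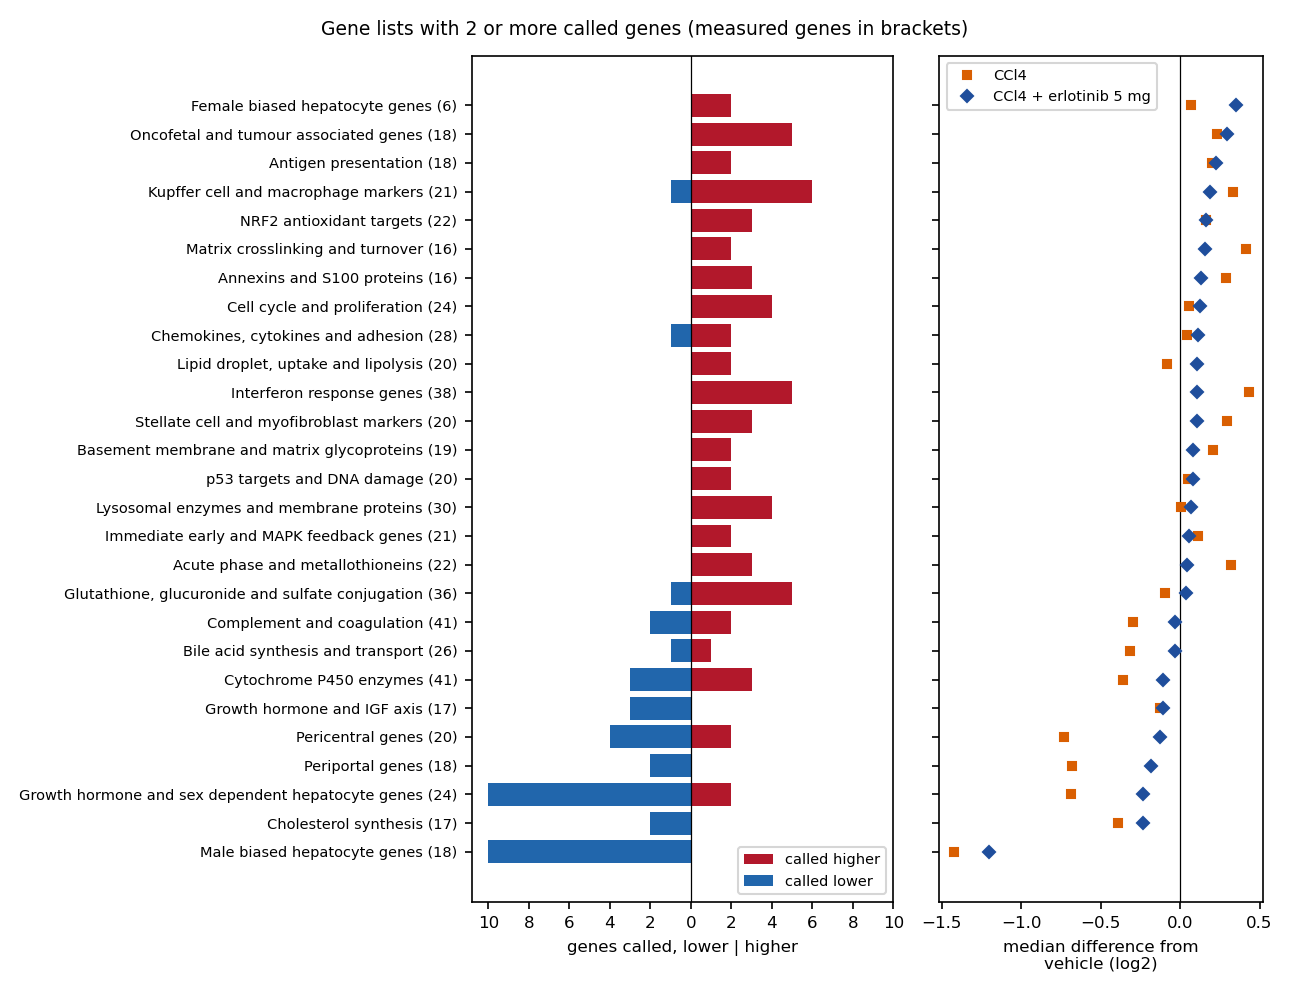
For every gene list with 2 or more called genes, the left panel counts the genes called lower (blue, to the left) and higher (red, to the right) with CCl4 and erlotinib 5 mg against vehicle, with the number measured in brackets. The right panel gives the median log2 difference from vehicle over the measured genes of each list, with CCl4 alone (orange squares) and with CCl4 and erlotinib 5 mg (blue diamonds); the 18 male-biased genes stand lowest, at -1.20 with erlotinib 5 mg.

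Several gene groups held 0 called genes against vehicle in limma, beside the 1.89% called among all genes. Of all 11022 tested genes, 1187 had an unadjusted p under 0.05. Among 55 cytosolic ribosomal protein genes the median difference was 0.14, against 0.64 with CCl4 alone, and among 20 tubulin and actin genes it was 0.14, against 0.93; 13 and 6 of these genes had an unadjusted p under 0.05. Among 34 genes of the urea cycle and amino acid breakdown the median was -0.01, against -0.54 with CCl4 alone, and among 18 one-carbon and methionine cycle genes -0.05, against -0.59; 6 and 3 of these had an unadjusted p under 0.05. Oat, ornithine aminotransferase, which was counted with the pericentral genes and not here, read 11.35 and 11.08 with vehicle and 10.34 and 10.28 with erlotinib 5 mg (-0.91 ± 0.17, adjusted p = 0.00742), beside -1.58 with CCl4 alone. The Oat call ended without vehicle array 1 (-0.77) or either erlotinib 5 mg array (-0.94 and -0.87). The 62 oxidative phosphorylation genes had a median of 0.05 and the 28 genes of the unfolded protein and integrated stress responses -0.01. The 27 endothelial genes had a median of -0.07. In these 3 groups 4, 4 and 5 genes had an unadjusted p under 0.05. The summed level of 5 endothelial markers was 10.41 and 10.37 with vehicle and 10.05 and 10.18 with erlotinib 5 mg (log2). With CCl4 alone it was 10.14 and 10.42, and 0 of the 5 were called against vehicle with erlotinib 5 mg.

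Several genes that differed between CCl4 alone and vehicle were not called with erlotinib 5 mg. Cyp2e1, the P450 that activates CCl4, read 12.44 and 12.32 with vehicle, 10.94 and 9.90 with CCl4 alone and 12.27 and 12.20 with erlotinib 5 mg (-0.15 ± 0.22, 95% interval -0.62 to 0.33). Car3, a carbonic anhydrase abundant in male liver, was at -0.35 ± 0.35 (95% interval -1.10 to 0.40) beside -3.30 with CCl4 alone. Hamp2, a hepcidin gene, was at 0.39 ± 0.26 (95% interval -0.16 to 0.93) beside -2.74. Cd14, the endotoxin co-receptor, was at 0.25 ± 0.20 (95% interval -0.18 to 0.68) beside 3.17, and Gnmt, a methyltransferase of the methionine cycle, at 0.07 ± 0.14 (95% interval -0.23 to 0.38) beside -0.92. Cyp8b1, the sterol 12-alpha-hydroxylase of bile acid synthesis, read 11.40 and 11.55 with vehicle and 10.45 and 10.50 with erlotinib 5 mg, and its difference of -0.998 ± 0.42 (95% interval -1.88 to -0.12) was not called (adjusted p = 0.365 in limma). The CCl4 arrays of Cyp8b1 read 9.28 and 7.16, the widest gap within a group for this gene.

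**Figure D5:**
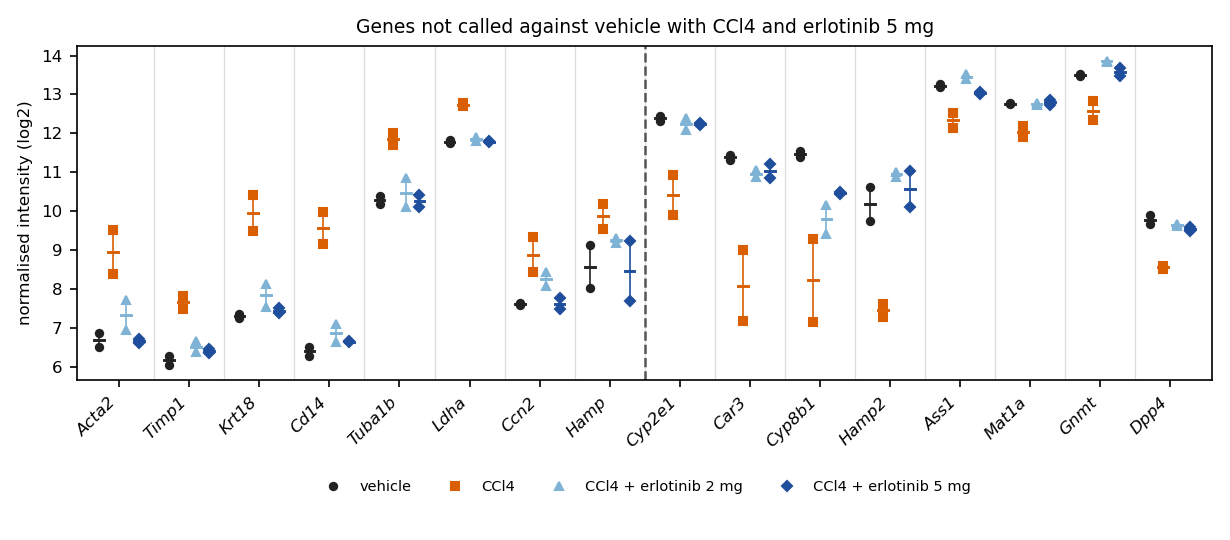
Normalised intensity (log2) on every array for 16 genes that were not called between erlotinib 5 mg with CCl4 and vehicle, with genes higher on the CCl4 arrays to the left of the dashed line and genes lower on them to the right. Symbols are single arrays in 4 groups and short bars are group means (n = 2); the Acta2 arrays read 6.87 and 6.52 with vehicle, 8.39 and 9.52 with CCl4 and 6.6 and 6.71 with erlotinib 5 mg.

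The 2 erlotinib doses, both given with CCl4, differed in 2 of the 11022 genes (0.0181%). Both genes were higher with 5 mg: Acot1 by 0.96 ± 0.15 and Cyp4a31, a fatty acid hydroxylase, by 0.85 ± 0.13 (adjusted p = 0.0439 for each in limma). No other processing setting was run for this comparison of doses. The 2 mg differences from vehicle, which rest on the same vehicle arrays, were -0.18 for Acot1 and 0.07 for Cyp4a31, beside 0.78 and 0.92 with 5 mg. For Hsd3b5 the differences from vehicle were -3.94 with 2 mg and -4.03 with 5 mg, for Mup21 -4.01 and -3.75, for Lcn2 3.34 and 3.18, and for Ly6d 2.85 and 2.66. For Cyp2b13 they were 1.18 with 2 mg and 2.29 with 5 mg, for Egfr -0.93 and -1.54, and for Ccnd1 1.83 and 0.95; none of these 3 differences between doses was called.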

How the data were processed

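Total RNA from the livers was labelled with Cy5 and hybridised to Illumina BeadArrays, per the labels' protocols. The deposited probe intensities come from a table the authors named as non-normalised; they are on a linear scale and their medians differ between arrays. A second deposited table holds intensities that rank the probes of each array almost alike but with medians made alike, by a method not given in the sources used here. From the first table, limma 3.58.1 in R 4.3.3 applied normexp background correction (offset 50) and quantile normalisation. Of 23978 probes with a gene symbol from the platform annotation, 14438 had a mean above the 40th percentile and were kept, and the brightest probe stood for each of 11022 genes. One linear model with 4 group means was fitted to all 8 arrays, with moderated variances (residual df 4, prior df 11.9) and Benjamini-Hochberg adjustment. Detection p-values were not used here: the background limit of an array was the 99th percentile of 1324 odorant, vomeronasal and trace amine receptor probes, and an "at least" fold takes the limit where every array of a group lay under it. The number of arrays limits the precision. The model was tested on simulated data. Genes were named as the 15 largest called rises and falls whose groups did not overlap and that were above background on both arrays of a group, up to 4 called members of each of 52 gene lists by size, the 8 called genes that differed most from CCl4 alone in each direction, a set of genes fixed by name, and the 2 brightest members of lists with under 2 calls; others are marked as chosen after their values were seen. Not every gene that these rules picked is described in the text. Members and lists were chosen with earlier results of these data known. Alternatives are given in the closing section.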

Additional observations from a re-analysis of the deposited data

Results flagged for a closer look

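Acot1 was 0.96 higher (log2) and Cyp4a31 0.85 higher with erlotinib 5 mg than with erlotinib 2 mg, both with CCl4. They stand out because the limma test of the difference between the doses called these 2 genes (adjusted p = 0.0439 for each) and no other of the 11022. The other processing settings were run against vehicle and against CCl4 alone, not between the doses, so these 2 calls were not checked under them. Of 980 kept probes without a gene symbol, which no comparison above used, 15 were called higher and 16 lower with erlotinib 5 mg than with vehicle.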

How the results depend on the processing

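Against vehicle, 129 genes were higher and 79 lower. The authors' normalised values gave 64 higher and 42 lower, and median scaling 23 and 11. Leaving out 1 array at a time gave 45 to 143 higher and 33 to 102 lower. Against CCl4 alone, with 486 higher and 513 lower, median scaling gave 72 and 97, and leaving out 1 array at a time gave 246 to 480 higher and 279 to 505 lower; 279 and 246 are the values without CCl4 array 2. The cause of these changes was not tested. The other settings run, namely no background correction, no filter on dim probes, probes above background on at least 2 arrays, a trend and robust prior, the mean of a gene's probes, array weights and only the compared arrays, kept these counts within 1.5 times. No named gene reversed. Of the 98 picked genes called against vehicle, not all of them described above, 26 kept their call under median scaling and 50 with the authors' values. With an intensity trend and a robust prior in limma 79 kept it, and the call of Serpina1e ended (adjusted p = 0.118). Testing each kept probe by itself, an alternative chosen after seeing the data, gave 153 higher and 98 lower. No paired analysis was possible because the replicate numbers were given in accession order and pair no arrays. A detection p filter and a slide block were not run. Probes near background limit what can be seen: 4405 tested genes were under background on all 8 arrays.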
